A study of Homo sapiens with 48 samples.

Results

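The comparison described here is what epidermal growth factor (EGF) added to angiotensin II (AII) after 24 h: 6 libraries of cells that received AII and EGF together (AII + EGF) against 5 libraries of cells that received AII alone. They are 11 of the 48 libraries of the series and were chosen by their treatment and time labels, with 1 library left out on its counts. The label AII 24 h was given to 6 libraries, and replicate 4 was left out because its counts differed from those of control 6 h replicate 2 by less than sampling noise. All libraries came from HEK293 cells, an established line from human embryonic kidney, in the form of a clone that carries AT1R as a stable transgene, that is the type 1 angiotensin receptor encoded by AGTR1. The study sequenced poly(A) RNA of 8 groups, and asked whether both receptors act on transcription in series or in parallel. In each group the cells were kept in serum-free medium. The AII group received 1 nM AII, the AII + EGF group 1 nM AII with 10 µg/L EGF, the EGF group 10 µg/L EGF, and the control group no stimulus. The receptor gene is a transgene in every group, and all libraries stem from a single selected clone. The control and EGF groups of 24 h (6 and 5 libraries) served only to set the EGF change without AII beside the EGF change with AII.

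EGF binds the tyrosine kinase receptor EGFR, which signals through RAS, RAF, MEK and ERK. ERK phosphorylates ternary complex factors and so drives early-response genes such as EGR1 and FOS, and it releases the ETS factors ETV1, ETV4 and ETV5 from repression by Capicua (CIC). The same pathway induces its own inhibitors, among them the dual-specificity phosphatases (DUSP) and the Sprouty proteins (SPRY). AT1R couples to Gq and phospholipase C, and also reaches ERK and the actin-MRTF branch of the serum response factor SRF.

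Promoter sequences are shown first for 4 genes that rose, to show motifs of SRF, of EGR proteins and of AP-1, factors at the end of this pathway. Each is the 250 bases before a RefSeq start on GRCh38.p14, read on the gene's own strand, with the motif in capitals. EGR1 encodes an early-response zinc finger factor, and its window (chr5:138465229-138465478, plus strand) holds 2 matches to the CArG box, the element that SRF binds.
EGR1: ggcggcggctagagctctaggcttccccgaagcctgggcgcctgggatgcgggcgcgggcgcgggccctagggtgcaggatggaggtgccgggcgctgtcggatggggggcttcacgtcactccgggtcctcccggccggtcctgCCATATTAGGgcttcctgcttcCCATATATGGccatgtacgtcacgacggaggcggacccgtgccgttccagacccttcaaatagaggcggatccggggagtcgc
NAB2 encodes a co-repressor that binds EGR proteins, and its window (chr12:57088864-57089113, plus strand) holds the EGR motif GCGGGGGCG.
NAB2: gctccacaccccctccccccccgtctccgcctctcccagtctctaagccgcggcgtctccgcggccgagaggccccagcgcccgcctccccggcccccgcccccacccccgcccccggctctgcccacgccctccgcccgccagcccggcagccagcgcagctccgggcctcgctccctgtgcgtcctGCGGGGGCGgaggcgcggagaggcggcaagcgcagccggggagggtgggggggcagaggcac
EMP1 encodes an epithelial membrane protein and LAMB3 the beta3 chain of laminin-332, and both windows (chr12:13196476-13196725, plus strand, and chr1:209651375-209651624, minus strand) hold the AP-1 motif TGAGTCA on either strand. LAMB3 has 3 starts in the table, of which the one with the motif is printed.
EMP1: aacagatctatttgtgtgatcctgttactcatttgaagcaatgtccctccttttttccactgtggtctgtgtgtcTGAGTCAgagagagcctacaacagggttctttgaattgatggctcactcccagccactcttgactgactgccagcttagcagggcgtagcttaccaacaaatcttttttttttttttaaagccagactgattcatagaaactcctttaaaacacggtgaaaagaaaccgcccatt
LAMB3: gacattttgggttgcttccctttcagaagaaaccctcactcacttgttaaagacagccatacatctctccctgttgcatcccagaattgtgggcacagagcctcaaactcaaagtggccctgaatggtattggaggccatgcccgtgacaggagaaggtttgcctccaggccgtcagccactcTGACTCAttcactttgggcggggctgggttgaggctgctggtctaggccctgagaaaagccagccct

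Before the results, 1 of the 11 libraries has to be named. AII + EGF replicate 6 stood apart from the other 5 AII + EGF libraries. On a scale where 0 is the mean of the AII libraries and 1 the mean of the AII + EGF libraries, both taken without the replicates 6, AII + EGF replicates 1 to 5 lay between 0.91 and 1.13 and replicate 6 at 0.28. The scale was computed over the 355 genes called without the replicates 6 (192 higher, 1.03% of the genes tested, and 163 lower, 0.874%), and a library was never part of its own reference mean. The libraries other than the replicates 6 made these calls, so their places near 0 and 1 are in part set by this choice of genes. The replicates 6 took no part in the choice, and how far it alone displaces them was not tested. AII replicate 6 lay at -0.24, while AII replicates 1, 2, 3 and 5 lay between -0.02 and 0.06. The replicates 6 have consecutive sample titles across the 4 treatments, here title run 8, and they were displaced in the other groups too: EGF replicate 6 lay at 0.15 and control replicate 6 at -0.27 on the matching scale from control to EGF. That scale, over the 71 genes called without the replicates 6, has the same limit. The labels do not call a title run a batch. Results are therefore given with and without AII + EGF replicate 6, and within title runs where these bear on them. A fit without AII + EGF replicate 6 keeps AII replicate 6, so its groups no longer come from the same title runs. Calls that appear only in such a fit are to be read with that limit. In units of 1e6 counts, the 11 libraries held 18.4 to 26.1, with a mean of 21.8 ± 2.17 for AII + EGF (SD, n = 6) and 22.4 ± 3 for AII (SD, n = 5).

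**Figure D1:**
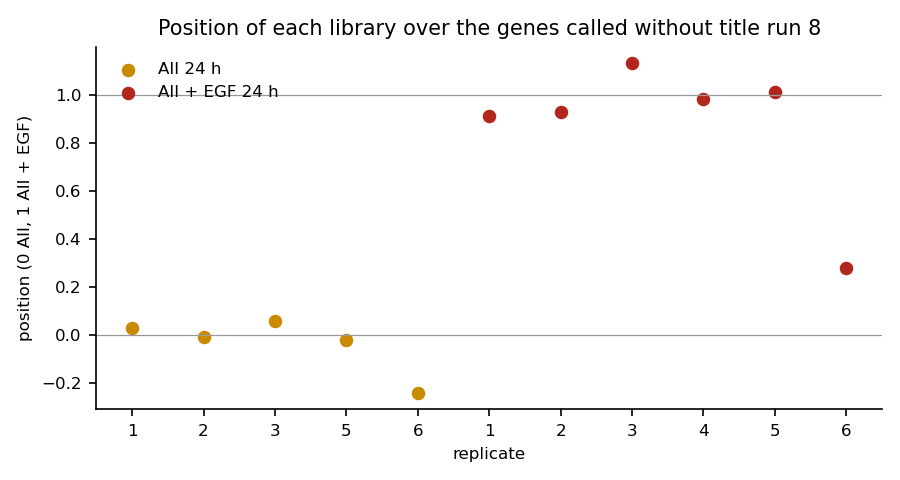
Position of each of the 11 libraries (vertical axis, no unit: 0 is the mean of the AII libraries and 1 the mean of the AII + EGF libraries) by replicate number (horizontal axis). AII + EGF replicates 1 to 5 lie between 0.91 and 1.13, AII + EGF replicate 6 lies at 0.28 and AII replicate 6 at -0.24. The 355 genes used were called without the replicates 6, so the places of the other libraries near 0 and 1 are in part set by that choice.

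EGF changed 176 of the 18703 genes tested when it was added to AII: 114 were higher and 62 lower in AII + EGF than in AII. A gene was called at an adjusted p under 0.01 (edgeR quasi-likelihood test, Benjamini-Hochberg adjustment) if it also differed 1.5-fold or more and its higher group averaged over 5 CPM, the unit of all levels here (counts scaled to 1e6 per library). The called genes were 0.941% of those tested, 0.61% higher and 0.331% lower. Counts of called members in the gene lists are to be read against these shares. The median rise was 1.79-fold and 39 genes rose at least 2-fold, and the median fall was 1.72-fold and 15 genes fell at least 2-fold. Over all genes tested the median log2 change was -0.02, and 4033 (21.6%) passed an unadjusted p of 0.05 in either direction, against which such counts in the gene lists are to be read. In 135 of the 176 genes the 6 AII + EGF libraries did not overlap with the 5 AII libraries, whereas this held for 914 of all genes (4.89%). Of the called genes 151 were protein coding and 20 were long non-coding RNAs, 17 of them lower. Without AII + EGF replicate 6 the count was 385 (197 higher, 188 lower, 2.07% of 18632 genes), and all 176 genes were among them. Without title run 8, which removes AII replicate 6 too, the count was 355 (192 higher, 163 lower, 1.9% of 18652 genes).

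The direction of the called genes was also read within each title run. In title runs 2, 3 and 6 all 114 genes called higher were higher and all 62 called lower were lower. In title run 8, with 1 library of each treatment, 111 of 114 were higher and 61 of 62 lower. The median difference of the genes called higher was 0.73, 0.97, 0.87 and 0.64 on the log2 scale in title runs 2, 3, 6 and 8, and that of the genes called lower was -0.84, -0.83, -0.88 and -0.48. These libraries also made the calls, so the shares describe how evenly the change was spread over the runs.

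**Figure D2:**
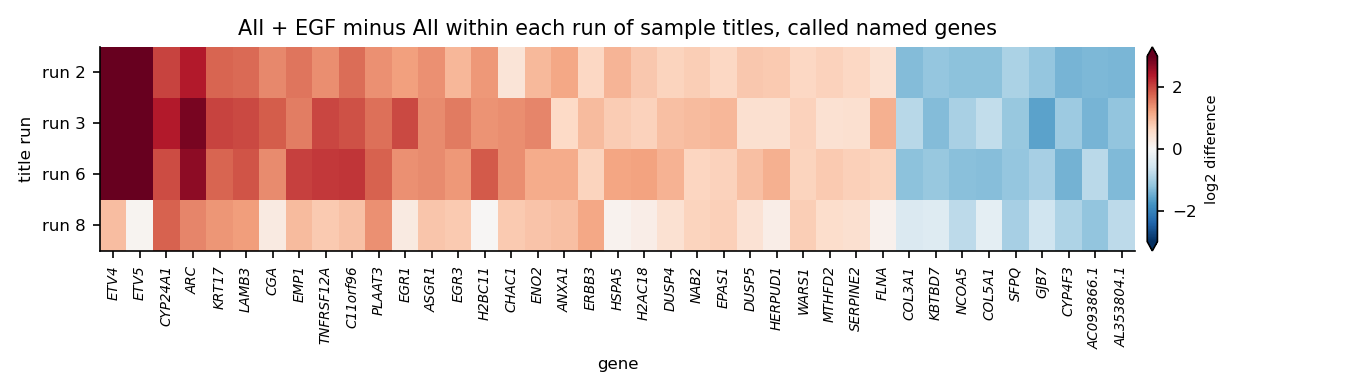
Difference between AII + EGF and AII (colour, log2 of CPM + 0.5, red higher and blue lower in AII + EGF, clipped at 3) within title runs 2, 3, 6 and 8 (rows) for the 39 called genes of the named set (columns). All cells of a column have the same sign, and in title run 8 the differences of H2BC11, ETV5 and HSPA5 were 0.03, 0.09 and 0.10.

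The PEA3 factors, which bind ETS sites and serve as a transcriptional readout of ERK activity, gave the largest changes among the called genes. ETV4 (ENSG00000175832, chr17:43527846-43546340) had 0.0499, 0.0828, 0, 0.199 and 0 CPM in AII replicates 1, 2, 3, 5 and 6. Under AII + EGF the lowest value was 0.447 CPM (replicate 6), the median 6.02 and the highest 8.03 CPM. The groups did not overlap, and replicate 6 was far below the other AII + EGF libraries, which started at 4.99 CPM. The 5 AII libraries together held 7 counts of ETV4 and the 6 AII + EGF libraries 657, so the fitted log2 change of 6.28 ± 0.80 (SE, adjusted p = 4.27e-05) depends on the prior count used for low counts. Without AII + EGF replicate 4 it stayed past the p threshold but its mean was not above 5 CPM. ETV5 (ENSG00000244405, chr3:186046314-186109089) had 1.15, 0.621, 0.981, 0.946 and 0.949 CPM in the AII libraries. Under AII + EGF it ranged from 1.04 CPM in replicate 6 over a median of 12.1 CPM to 16 CPM. The groups overlapped only through replicate 6, whose ETV5 value lay within the AII range. The log2 change of ETV5 was 3.54 ± 0.53 (SE, adjusted p = 0.000328), and 3.79 without replicate 6 (adjusted p = 2.77e-06). ETV1 had a mean of 1.38 ± 0.7 CPM (SD, n = 6) against 0.287 ± 0.171 CPM (SD, n = 5), a log2 difference of 2.19 at adjusted p = 0.00748, and was not called because its mean stayed under 5 CPM. Their repressor CIC and its partners ATXN1 and ATXN1L differed by -0.10, 0.03 and 0.09 on the log2 scale and were not called.

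The early-response factors followed, with 4 of 32 tested members higher (12.5%, against 0.941% of all genes called), none lower and a median log2 change of 0.27. At an unadjusted p under 0.05, 17 were higher and 2 lower, whereas 21.6% of all genes passed in either direction. EGR1 (ENSG00000120738), the zinc finger factor whose promoter with 2 CArG boxes is printed above, had 7.34, 7.25, 7.85, 11.1 and 6.93 CPM under AII. Under AII + EGF its lowest value was 8.38 CPM in replicate 6, its median 24.0 CPM and its highest value 35.1 CPM. Replicates 1 to 5 of AII + EGF lay at 17.1 CPM or above and did not overlap with AII, whereas replicate 6 did. The log2 change of EGR1 was 1.52 ± 0.32 (SE, adjusted p = 0.00604), and leaving out single libraries ended its call in 7 of 11 fits, with adjusted p up to 0.0219. ARC, a synaptic protein and SRF target, had 7.99, 7.04, 7.71, 8.16 and 4.49 CPM under AII, and 13.3 CPM (replicate 6), a median of 49.1 CPM and a highest value of 63.7 CPM under AII + EGF. All AII + EGF libraries were above all AII libraries. ARC rose by 2.67 ± 0.31 on the log2 scale (SE, adjusted p = 1.22e-05), and no single library ended the call. EGR3 rose by 1.37 ± 0.26 (SE, adjusted p = 0.00271), from a mean of 2.02 to 5.2 CPM, without overlap, and was not called without AII replicate 6 (adjusted p = 0.012). NAB2, the co-repressor with an EGR motif in the window printed above, rose by 0.80 ± 0.13 (SE, adjusted p = 0.00101), from 13.8 ± 1.46 CPM (SD, n = 5) to 23.9 ± 2.79 CPM (SD, n = 6).

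Of the AP-1 factors, which bind TGAGTCA as dimers, 0 of 12 tested were called by edgeR, with a median log2 change of 0.24, and 7 passed an unadjusted p of 0.05, against 21.6% of all genes. Without AII + EGF replicate 6, 1 of the 12 was called higher, against 1.06% of all genes. FOS had 7.99, 7.37, 5.75, 7.17 and 2.19 CPM under AII, and a lowest value of 1.57, a median of 5.74 and a highest value of 7.87 CPM under AII + EGF. The groups overlapped throughout, and the log2 difference of FOS was -0.26 ± 0.39 (SE, adjusted p = 0.758). In both groups replicate 6 had the lowest value. FOSL1, another FOS family member, differed by -0.17 ± 0.21 (SE, adjusted p = 0.688), JUN by 0.31 ± 0.10 (SE, adjusted p = 0.074) and JUND by -0.35 ± 0.13 (SE, adjusted p = 0.11).

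The inhibitors that ERK signalling induces were mostly higher without passing the threshold. Of 22 tested, 2 were called higher (9.09%, against 0.941% of all genes called) and none lower, and the median log2 change was 0.30. At an unadjusted p under 0.05, 10 were higher and 0 lower, whereas 21.6% of all genes passed in either direction. DUSP4, a nuclear phosphatase of ERK, had 14.7, 12.6, 14.6, 13.4 and 11.1 CPM under AII. Under AII + EGF it had 15.2 CPM in replicate 6, a median of 24.3 CPM and a highest value of 29.1 CPM. The groups were separated by less than 1 CPM because of replicate 6. DUSP4 rose by 0.84 ± 0.16 on the log2 scale (SE, adjusted p = 0.00317), a call lost in 4 of 11 fits without a single library. DUSP5, also a nuclear ERK phosphatase, rose by 0.77 ± 0.16 (SE, adjusted p = 0.00446), from 3.05 ± 0.444 CPM (SD, n = 5) to 5.22 ± 0.674 CPM (SD, n = 6), and its call did not survive 8 of the 11 fits without a single library. DUSP6, the cytoplasmic ERK phosphatase, had a mean of 1.05 against 0.444 CPM, a log2 difference of 1.22 at adjusted p = 0.0205, without overlap. SPRY2, a Sprouty protein, had 16.1 ± 2.47 CPM (SD, n = 6) against 12 ± 1.01 CPM (SD, n = 5), a log2 difference of 0.43 at adjusted p = 0.0375. SPRY4 held 10 counts in the 5 AII libraries and 67 in the 6 AII + EGF libraries and was not called. ERRFI1, which inhibits EGFR itself, differed by 0.58 ± 0.12 at adjusted p = 0.00416, just under 1.5-fold. Without AII + EGF replicate 6, 4 of the 22 inhibitors were called higher, against 1.06% of all genes.

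**Figure D3:**
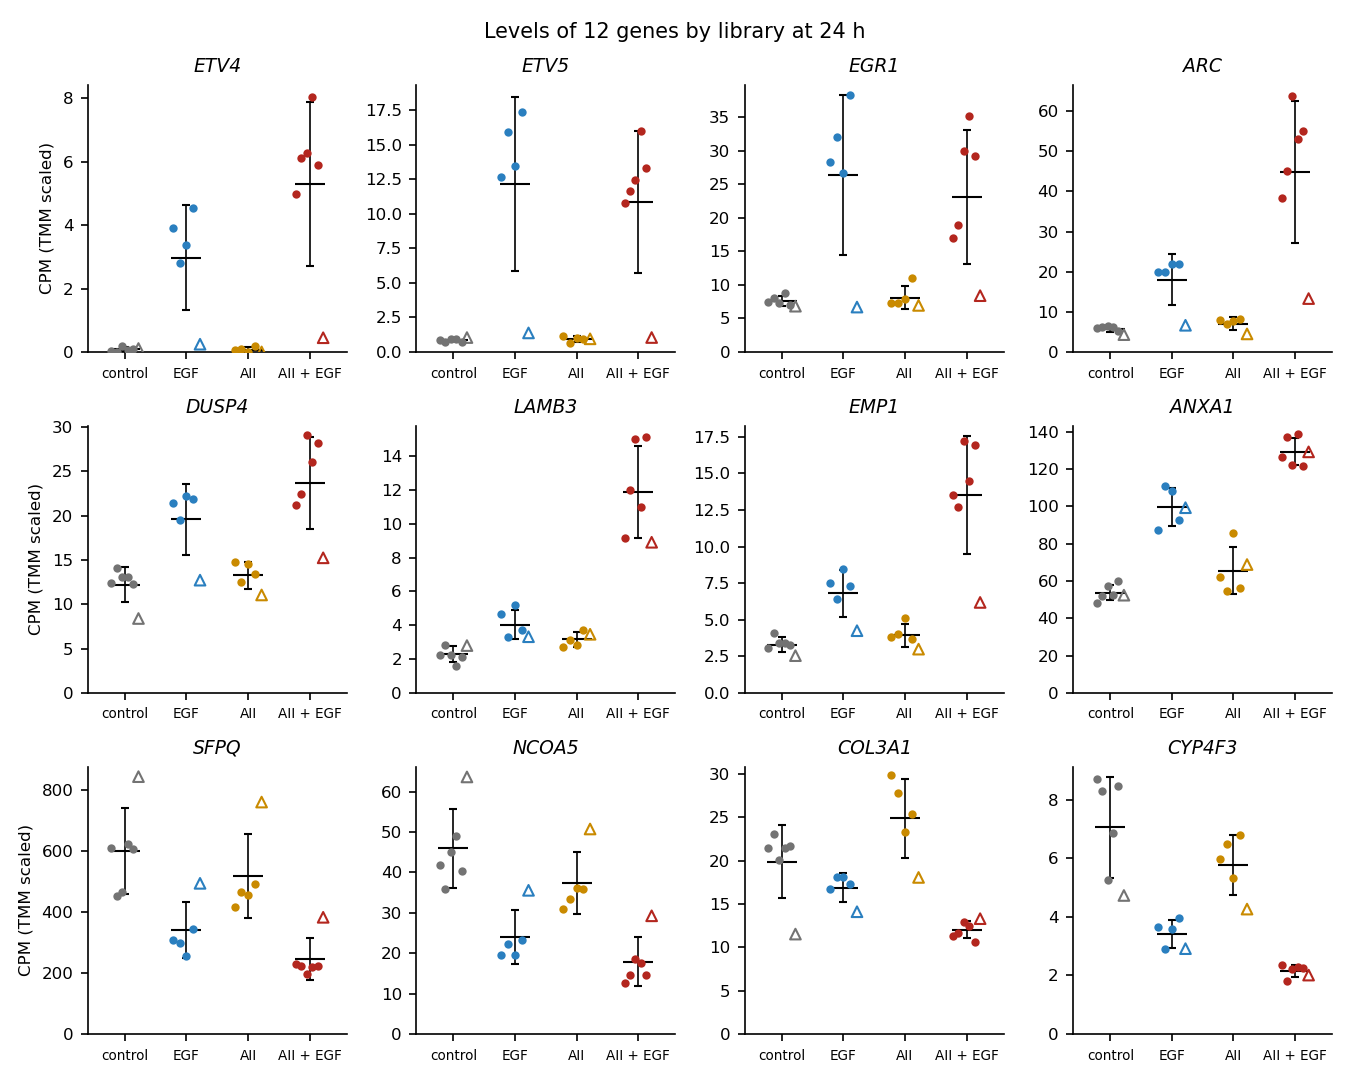
Level of 12 genes (CPM scaled with TMM factors, vertical axes from 0) in each 24 h library of control, EGF, AII and AII + EGF. Points are libraries, open triangles the replicates 6, and bars the mean ± SD of all libraries shown in a group. ETV4 and ETV5 are near 1 CPM or below in every AII library and above 4.9 CPM in AII + EGF replicates 1 to 5, and SFPQ and NCOA5 are lower in every AII + EGF library than in every AII library.

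The receptors of both stimuli were measured next. AGTR1, the transfected receptor gene, had 8805, 7979, 8722, 8483 and 5557 CPM in the AII libraries. Under AII + EGF it had 8391 CPM in replicate 6, a median of 14500 CPM and a highest value of 15740 CPM. Replicates 1 to 5 lay above all AII libraries, and both replicates 6 were the lowest of their group. The log2 difference of AGTR1 was 0.78 ± 0.19 (SE) at adjusted p = 0.013, and it was not called. With the title run as a block it was 0.76 at adjusted p = 1.78e-06, which is a call. Without AII + EGF replicate 6 it was 0.89 at adjusted p = 0.00182, and the gene was called. EGFR differed by -0.02 ± 0.12 (SE, adjusted p = 0.953), with 29.8 ± 2.85 CPM (SD, n = 6) against 30.2 ± 3.6 CPM (SD, n = 5). ERBB3, a receptor of the EGFR family that binds neuregulins, rose by 0.91 ± 0.17 (SE, adjusted p = 0.00246) and did not overlap, with 2.55 to 4.1 CPM under AII and 5.84 to 7.15 CPM under AII + EGF, though it was not called without AII replicate 6 (adjusted p = 0.0109). It was the only one called among the 11 tested EGF-family ligands and ERBB receptors. HBEGF, the membrane-bound EGF-like ligand that AT1R can release, did not overlap between the groups (2.82 to 3.92 against 4.18 to 6.12 CPM), yet its log2 difference of 0.53 ± 0.14 (SE) missed the threshold at adjusted p = 0.0197. Of the 32 tested genes of angiotensin and Gq signalling 0 were called by edgeR and 8 passed an unadjusted p of 0.05, a share near the 21.6% of all genes, with a median log2 change of 0.02. Without AII + EGF replicate 6, AGTR1 was the 1 call in that list.

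Matrix, adhesion and cytoskeletal genes were called in both directions. LAMB3 (ENSG00000196878, chr1:209614870-209652425), whose promoter with an AP-1 motif is printed above, had 2.7, 3.11, 2.85, 3.73 and 3.47 CPM under AII, and 8.91, a median of 11.5 and at most 15.1 CPM under AII + EGF. The groups were far apart, including replicate 6. LAMB3 rose by 1.90 ± 0.18 (SE, adjusted p = 1.43e-06). EMP1 (ENSG00000134531, chr12:13196726-13219941), the other gene with the motif, had 3.84, 4.06, 5.14, 3.68 and 2.99 CPM under AII, and 6.19 (replicate 6), a median of 14 and at most 17.2 CPM under AII + EGF. EMP1 rose by 1.78 ± 0.22 (SE, adjusted p = 2.61e-05). TNFRSF12A, the receptor of the cytokine TWEAK, rose by the same 1.78 ± 0.20 (SE, adjusted p = 1.21e-05), from 4.76 to 5.34 CPM in the AII libraries to 9.24 to 23.2 CPM. SERPINE2, a protease inhibitor of the extracellular space, rose by 0.63 ± 0.12 (SE, adjusted p = 0.00215), and FLNA, which crosslinks actin, by 0.59 ± 0.12 (SE, adjusted p = 0.00319). FLNA was the only call among 30 tested MRTF-SRF cytoskeletal genes, whose median log2 change was 0.14, and its call was lost in 5 of 11 fits without a single library and under 4 other alternatives. SERPINE2 lost its call without AII + EGF replicate 3 and without AII replicate 6. KRT17, a keratin of stressed epithelia, rose by 1.97 ± 0.40 (SE, adjusted p = 0.0043), with AII + EGF replicate 6 at 9.28 CPM inside the AII range of 3.43 to 11.7 CPM, and lost its call in 5 of 11 such fits.

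A pair of fibrillar collagen genes fell. COL3A1 (ENSG00000168542, chr2:188974373-189012746), the chain of type III collagen, had 29.9, 27.8, 23.3, 25.4 and 18.1 CPM under AII, and a lowest value of 10.6, a median of 12 and a highest value of 13.3 CPM under AII + EGF. The AII + EGF libraries were close together and below all AII libraries. COL3A1 fell by 1.04 on the log2 scale (SE 0.14, adjusted p = 0.000131). COL5A1, which joins the same fibrils, fell by 1.07 (SE 0.20, adjusted p = 0.00212), from 55.1 ± 18.3 CPM (SD, n = 5) to 26.3 ± 2.79 CPM (SD, n = 6). COL1A1, COL4A1 and COL4A2 differed by 0.10, 0.05 and -0.18 and were not called. TGFB1, which drives collagen synthesis in many cells, had 29.2, 28, 27.9, 32.2 and 13.3 CPM under AII, and a lowest value of 20.3, a median of 53.4 and a highest value of 66.2 CPM under AII + EGF. Both lowest values were those of the replicates 6. The log2 difference of TGFB1 was 0.93 ± 0.33 (SE) at adjusted p = 0.0866, and it was higher in 4 of 4 title runs. With the title run as a block it was 0.83 at adjusted p = 8.21e-05, which is a call. In all, 2 of the 40 tested protease, matrix and TGF-beta genes were called higher and 1 lower, with a median log2 change of 0.17 (COL3A1 is not on that list).

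Among the annexins and S100 proteins, which bind calcium and membranes, ANXA1 was called. ANXA1 (ENSG00000135046, chr9:73151865-73170393), a mediator of resolving inflammation and a substrate of EGFR, had 62.1, 54.5, 85.8, 56.3 and 68.8 CPM under AII, and a lowest value of 122, a median of 128 and a highest value of 139 CPM under AII + EGF. Replicate 6 lay within the other AII + EGF libraries here. ANXA1 rose by 0.98 ± 0.10 (SE, adjusted p = 6.6e-06). Of the 14 tested members 13 had a value above 0, with a median log2 change of 0.43, but the other members were not called. At an unadjusted p under 0.05, 7 of the 14 were higher and 0 lower, whereas 21.6% of all genes passed in either direction. Without AII + EGF replicate 6, 3 members were called higher, against 1.06% of all genes.

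Other large rises concerned genes of unrelated function. CYP24A1, the enzyme that degrades active vitamin D, rose by 2.83 ± 0.48 (SE, adjusted p = 0.00115), from 0.073 to 0.995 CPM under AII to 1.45 to 8.39 CPM under AII + EGF. CGA, the shared alpha chain of glycoprotein hormones, rose by 1.80 ± 0.31 (SE, adjusted p = 0.00115), PLAAT3, a phospholipid-modifying enzyme, by 1.77 ± 0.20 (SE, adjusted p = 9.73e-06), and ASGR1, a subunit of the asialoglycoprotein receptor, by 1.48 ± 0.22 (SE, adjusted p = 0.000244). C11orf96 rose by 1.77 ± 0.22 (SE, adjusted p = 3.79e-05), from 27.1 to 41.6 CPM to 63.3 to 185 CPM. In each of these genes all AII + EGF libraries lay above all AII libraries. CYP24A1 without AII + EGF replicate 3, and CGA without AII + EGF replicate 3 or replicate 4, were past the p threshold but not above 5 CPM, and so were not called.

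Stress and metabolic lists had 2 or 3 calls each, 5.71% to 10% of their tested members, against 0.941% of all genes. At an unadjusted p under 0.05, 18 of 36 genes of ATF4 and amino acid supply were higher and 0 lower. For the unfolded protein response 9 of 20 were higher and 0 lower, and for glycolysis and HIF targets 6 of 35 were higher and 2 lower. Over all genes 21.6% passed in either direction. Of 36 tested genes of ATF4 and amino acid supply, 3 were higher and none lower, with a median log2 change of 0.29: CHAC1, which degrades glutathione, by 1.23 ± 0.28 (SE, adjusted p = 0.00885), the tryptophanyl-tRNA synthetase WARS1 by 0.73 ± 0.13 (SE, adjusted p = 0.00204), and MTHFD2, a mitochondrial enzyme of folate metabolism, by 0.66 ± 0.12 (SE, adjusted p = 0.00204). The call of CHAC1 did not survive 8 of the 11 fits without a single library, and its AII + EGF values spread from 2.95 to 10.6 CPM. Of 20 tested genes of the unfolded protein response, 2 were higher, with a median of 0.22: the chaperone HSPA5 by 0.89 ± 0.17 (SE, adjusted p = 0.00318) and HERPUD1, which serves degradation of ER proteins, by 0.74 ± 0.15 (SE, adjusted p = 0.00488). In both, AII + EGF replicate 6 lay within the AII range, and their calls were lost in 4 and 8 of 11 fits without a single library. Of 35 tested glycolysis and HIF targets, 2 were higher, with a median of 0.08: the neuronal enolase ENO2 by 1.14 ± 0.24 (SE, adjusted p = 0.00574) and EPAS1, which encodes HIF-2alpha, by 0.78 ± 0.16 (SE, adjusted p = 0.00437). Both calls were lost when single libraries were left out, in 8 and 7 of 11 fits. With the title run as a block in edgeR their adjusted p was 4.89e-08 and 2.42e-07.

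Of 17 tested histone genes 2 were higher (11.8%, against 0.941% of all genes called), with a median of 0.30. H2BC11 rose by 1.36 ± 0.21 (SE, adjusted p = 0.000465) and H2AC18 by 0.86 ± 0.18 (SE, adjusted p = 0.0069). Canonical histone mRNA mostly lacks a poly(A) tail, and near-identical copies share reads, so these values are uncertain. The call of H2AC18 was lost in 8 of 11 fits without a single library, with adjusted p up to 0.0295. In the lists of cholesterol and fatty acid synthesis (29 genes), G1 cyclins and CDK inhibitors (18), S phase (33), mitosis (30), ribosome biogenesis (30), FOXO and TXNIP (30), snoRNA host genes (16) and ribosomal proteins (40) no member was called by edgeR, with medians from -0.05 to 0.16, and 5, 5, 7, 6, 5, 11, 3 and 1 members passed an unadjusted p of 0.05 in either direction. CCND1, the cyclin that growth factors induce in G1, differed by 0.15 ± 0.10 (SE, adjusted p = 0.428). TXNIP, an inhibitor of thioredoxin and of glucose uptake, differed by 0.49 ± 0.28 (SE, adjusted p = 0.33), and was higher in 4 of 4 title runs. With the title run as a block in edgeR TXNIP differed by 0.42 at adjusted p = 0.00202, below the 1.5-fold minimum. In bulk RNA more cells that express a gene and more RNA per cell cannot be told apart.

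**Figure D4:**
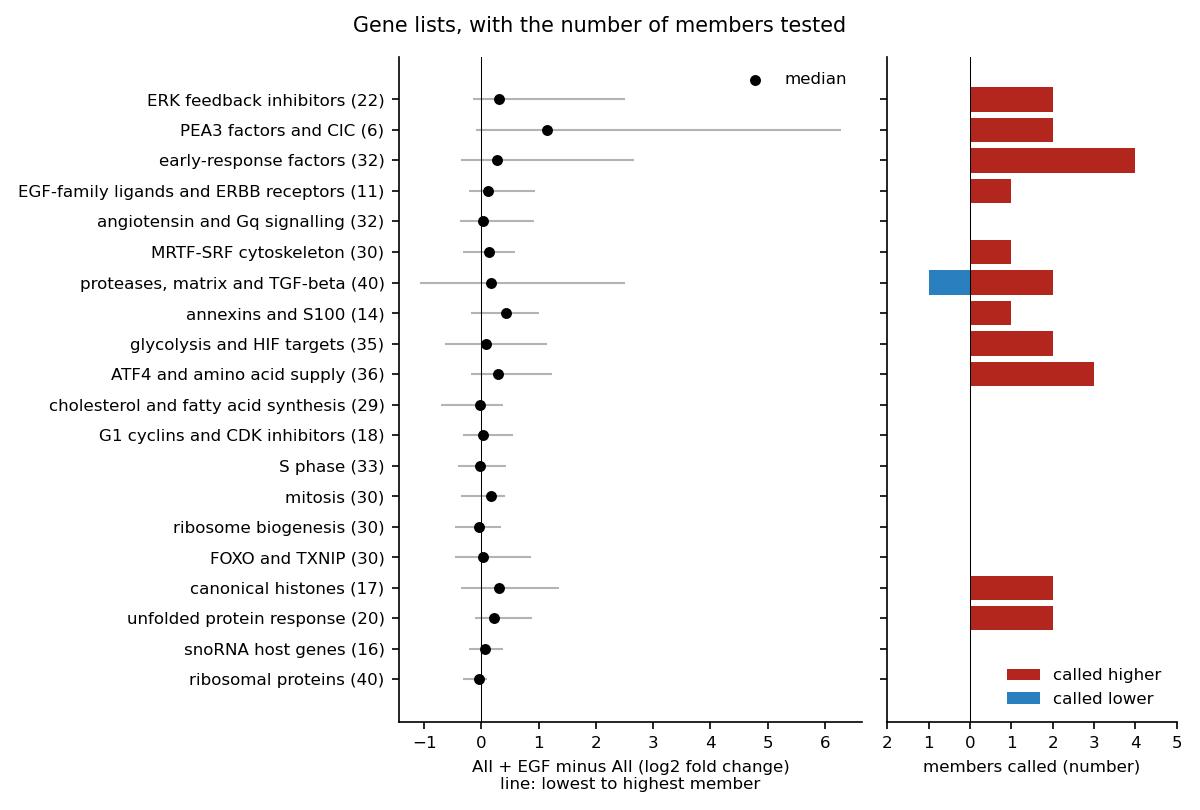
Left, log2 change between AII + EGF and AII for 20 gene lists, as the median (point) and the lowest to highest member (line), with the number of members tested in parentheses. Right, the number of members called higher (red) or lower (blue). The early-response factors have 4 calls, all higher, and 1 call in these lists is lower, COL5A1.

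SFPQ and NCOA5, which encode nuclear proteins, fell as well. SFPQ (ENSG00000116560, chr1:35176380-35193145), a splicing factor of nuclear paraspeckles, had 417, 466, 456, 494 and 762 CPM under AII, and a lowest value of 196, a median of 223 and a highest value of 383 CPM (replicate 6) under AII + EGF. Both replicates 6 were the highest of their group, and the groups did not overlap. SFPQ fell by 1.08 (SE 0.19, adjusted p = 0.00193). NCOA5, a nuclear receptor coregulator, showed the same order of libraries and fell by 1.06 (SE 0.20, adjusted p = 0.00209).

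Genes of other functions fell as well. CYP4F3, which oxidises leukotriene B4, had 5.99, 6.5, 5.32, 6.82 and 4.27 CPM under AII and 1.81 to 2.36 CPM under AII + EGF, with replicate 6 inside this range, and fell by 1.42 (SE 0.17, adjusted p = 2.48e-05). GJB7, a connexin of gap junctions, fell by 1.27 (SE 0.19, adjusted p = 0.000337) and KBTBD7, a substrate adaptor of a ubiquitin ligase, by 1.06 (SE 0.15, adjusted p = 0.000141). The transcripts AC093866.1 and AL353804.1, known by clone names, each fell by 1.44 (SE 0.22 and 0.23). In these genes no AII + EGF library reached the lowest AII library. Without AII replicate 3, GJB7 was past the p threshold but not above 5 CPM.

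The EGF change without AII was measured in libraries that the comparison above did not use. EGF against control at 24 h gave 4 called genes (0.0214% of 18703), ETV5, ANXA1 and CEBPG higher (0.016%) and CYP4F3 lower (0.00535%), and 2144 genes at an unadjusted p under 0.05. ETV4, ETV1 and PLAAT3 differed there by 5.13, 2.72 and 1.25 (adjusted p = 0.0016, 0.00566 and 0.00518). They averaged 2.98, 2.07 and 2.98 CPM under EGF, not above 5 CPM, and so were not called. All 114 genes called higher in AII + EGF against AII had a positive log2 change under EGF alone, against 45.7% of all genes, and 92 of them passed an unadjusted p of 0.05, against 5.19% of all genes. All 62 genes called lower had a negative change, against 54.3% of all genes, and 54 passed, against 6.27%. Their median log2 change was 0.84 with AII and 0.52 without AII for the genes called higher, and -0.78 and -0.48 for those called lower. The genes were chosen for a large change with AII, so a smaller median without AII is not a comparison. Across all 18703 genes the log2 changes with and without AII correlated with r = 0.67 and a slope of 0.86. Both contrasts share no library, but they share title runs and the genes are not independent.

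Whether AII altered the EGF change was tested as an interaction, and no gene was called (adjusted p under 0.01, with 419 genes or 2.24% at an unadjusted p under 0.05, and DESeq2 also called 0). With the title run as a block in edgeR, 1267 of 18703 genes passed an unadjusted p of 0.05 and 0 were called. ETV5 rose with EGF by 3.78 without AII (EGF against control, adjusted p = 0.000817) and by 3.54 with AII, an interaction of -0.24 ± 0.72 (SE). EGR1 differed by 1.80 without AII (adjusted p = 0.0108) and rose by 1.52 with it, and ANXA1 rose by 0.89 (adjusted p = 8.65e-05) and 0.98. Their changes with and without AII differed by less than the error. LAMB3 had a log2 change of 0.80 without AII (adjusted p = 0.0419) and 1.90 with AII, an interaction of 1.10 at unadjusted p = 0.000229 and adjusted p = 1. LAMB3 was also higher in AII + EGF than in EGF, by 1.55 (adjusted p = 0.000101), and it was 1 of the 2 genes called there, both higher (0.0107%). COL3A1 had -0.24 without AII and -1.04 with AII, an interaction of -0.81 at unadjusted p = 0.000563, which without title run 8 reached an adjusted p of 0.0128. ARC had 1.65 without AII and 2.67 with AII, an interaction of 1.01 at unadjusted p = 0.0221. Without title run 8 the interaction of ARC was 0.93 at unadjusted p = 2.5e-05 and adjusted p = 0.0933, and it was not called. AII against control, which shares the AII libraries, called no gene (225 at an unadjusted p under 0.05, 1.2%; edgeR). The named genes differed there by -0.40 to 1.44 on the log2 scale, SPRY4 being the highest with few counts.

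**Figure D5:**
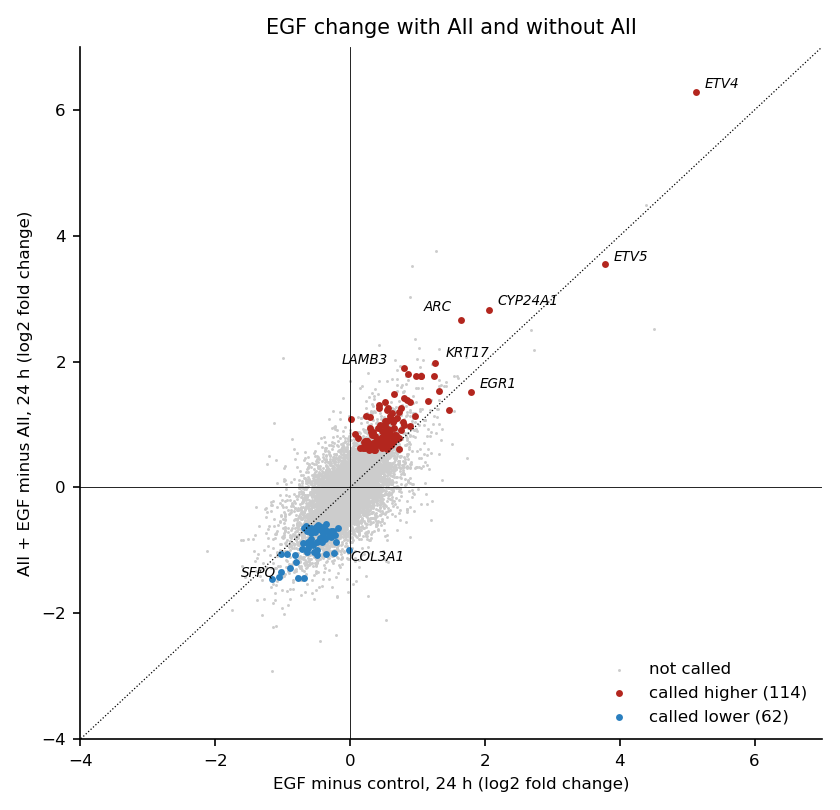
Log2 change of each tested gene with AII (AII + EGF minus AII, vertical axis) against the change without AII (EGF minus control, horizontal axis), both at 24 h. The 114 genes called higher (red) all lie right of 0 and the 62 called lower (blue) all left of 0, and the dotted line marks equal changes.

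At 6 h the same comparison depended on the replicates 6, which went against their labels. ARC had 6.18 to 9.12 CPM in AII replicates 1 to 5 of 6 h and 86.3 CPM in AII replicate 6, and 214 to 255 CPM in AII + EGF replicates 1, 2, 3 and 5 and 7.22 CPM in replicate 6. With all these libraries no gene was called at 6 h by edgeR (0 of 17977, 4518 at an unadjusted p under 0.05; DESeq2 called 207). Without the 2 libraries labelled AII 6 h replicate 6 and AII + EGF 6 h replicate 6, 1570 of 17788 genes were called (811 higher, 759 lower; 8.83%). Of the 114 genes called higher at 24 h, 50 were then called higher and 7 lower at 6 h (4.56% of all genes were called higher), and of the 62 called lower, 18 were called lower and 4 higher (4.27% lower). EGR1, EGR3 and ARC differed by 5.01, 3.88 and 4.97 at 6 h without these libraries and rose by 1.52, 1.37 and 2.67 at 24 h. LAMB3 differed by 0.23 at 6 h and was not called, SFPQ by 0.03, and CGA was lower by -0.93. FOS, FOSL1, HBEGF and DUSP5 differed by 1.93, 1.69, 1.67 and 1.91 at 6 h without these libraries, and by 1.54, 1.14, 1.22 and 1.33 with them. At 24 h they differed by -0.26, -0.17, 0.53 and 0.77. The 24 h values given here include the replicates 6 of 24 h, so the library sets of the times are unlike. The difference between the times was not tested.

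The motifs of the printed promoters were counted over all genes with a promoter in the RefSeq table, on both strands of the 250 bases before any listed start. Of the 114 genes called higher 75 had such a promoter. ETV4, ETV5 and ARC had none there, so the shares below do not cover them. EGR motifs (GCGTGGGCG or GCGGGGGCG) were found in 17 of 75 genes called higher (22.7%), in 2 of 37 called lower (5.41%) and in 11.3% of 11828 tested genes. AP-1 motifs (TGAGTCA) were found in 8 of 75 (10.7%), 2 of 37 (5.41%) and 4.1%, and CArG boxes in 3 of 75 (4%), 0 of 37 and 1.43%. The CIC motifs TGAATGAA or TGAATGGA were found in 2 of 75 (2.67%), 1 of 37 (2.7%) and 2.1%, and the ETS motif CCGGAAGT in 1 of 75 (1.33%), 6 of 37 (16.2%) and 7.41%. The motifs of the EGR pair and of the CIC pair differ from each other in 1 letter. The shares are descriptions of these windows without a test.

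The cells were checked against marker lists. All 12 HEK293 markers had counts, and their summed level was 6207 to 11540 CPM under AII + EGF and 4211 to 7927 CPM under AII. NEFM, a neurofilament, made up most of it, and ENO2 was the 1 marker called among 11 tested. Of 10 markers of HK2, the other kidney line the study used, 7 were tested, and KRT17 and LAMB3 were called higher, against 0.941% of all genes called. At an unadjusted p under 0.05, 5 of the 7 were higher. The summed level of the 10 was 200 to 315 CPM under AII + EGF against 156 to 221 CPM under AII. The part of other cells in these results was not tested. The lists for proximal tubule, smooth muscle, and leukocytes and endothelium had 0 calls by edgeR among 4, 6 and 1 tested genes, with 0, 1 and 1 at an unadjusted p under 0.05, and summed levels of at most 20.3, 63.3 and 2.1 CPM. CD3E was at 0 in all 11 libraries.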

How the data were processed

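Poly(A) RNA of the HEK293-AT1R clone was sequenced by the authors, who used HISAT2 2.1.0 for alignment to hg38 and featureCounts for counting per Ensembl gene. The deposited values are raw counts, not normalised. Strand use and the treatment of multi-mapping reads are not given in the sources used here, so values of overlapping, antisense and near-identical genes are uncertain. Replicates were numbered in order of deposition. The labels do not state separate cultures, so p-values measure the spread between these libraries, which may be technical.

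All pairs of libraries were compared with a chi-square statistic, divided by its degrees of freedom, over genes with at least 100 counts. It was under 1 for 4 of 1128 pairs (0.397 to 0.505, the next within a group 2.02). AII 24 h replicate 4 and EGF 24 h replicate 2, each near-identical to a control library of 6 h, were left out.

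The tests were run in edgeR 4.0.16 under R 4.3.3, with filterByExpr (18703 of 60610 listed genes), TMM factors and 1 quasi-likelihood fit over the 22 libraries of 24 h, without covariates. The thresholds follow the study's methods. The 6 h libraries, without 6 in near-identical pairs, had a fit of their own. CPM values are scaled with TMM factors. The steps were tested on simulated data. Alternatives included DESeq2 1.42.0.

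Named genes were the 10 largest rises and falls among called genes without overlap, up to 4 called members of each list, and 19 genes of both receptor pathways. 1 gene that this rule names is not reported here. The members, lists and named genes were chosen with earlier results of these data known. Promoters and gene positions are from RefSeq on GRCh38.p14.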

Additional observations from a re-analysis of the deposited data

Results flagged for a closer look

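Among the 51 named genes, each read in the AII + EGF (n = 6) and the AII (n = 5) libraries of 24 h, 17 of 102 groups had a library far from the others by Dixon's gap ratio. By chance about 1 in 20 groups would. AII + EGF replicate 6 gave 8 of the 17, and the genes are not independent.

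AII + EGF replicate 6 was the lowest for ETV5 (1.04 CPM), EGR3 (2.94 CPM), H2BC11 (4.4 CPM), HSPA5 (425 CPM), AGTR1 (8391 CPM) and CCND1 (76.6 CPM), and the highest for SFPQ (383 CPM) and NCOA5 (29.3 CPM). In each of the genes that were called, its value lay on the side of the AII libraries.

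AII replicate 6 was the lowest for CYP24A1 (0.073 CPM), AGTR1 (5557 CPM), TGFB1 (13.3 CPM) and FOSL1 (3.9 CPM), and the highest for SFPQ (762 CPM) and NCOA5 (50.8 CPM). Both libraries belong to title run 8.

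The other 3 were single high values under AII: KBTBD7 in replicate 3 (14.95 CPM), EGR1 in replicate 5 (11.1 CPM) and MTHFD2 in replicate 3 (202 CPM).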

How the results depend on the processing

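Of 39 called named genes none changed direction under any alternative that was run. Leaving out each library in turn ended a call for 18 of them (81 of 429 values), and the other alternatives for 16 (26 of 585). The 176 genes called in AII + EGF against AII became 101 to 385 when 1 library was left out, lowest without AII + EGF replicate 5 and highest without AII + EGF replicate 6. The counts without AII + EGF replicates 3 and 4 and AII replicates 5 and 6 were 110, 107, 110 and 104. The count was 274 with DESeq2, 314 at an adjusted p of 0.05, 291 without an abundance minimum, 269 with all 48 libraries, 265 with all 24 libraries of 24 h and 355 without title run 8. The 4 genes called in EGF against control became 54 with DESeq2, 21 without a filter, 41 at an adjusted p of 0.05, 10 without an abundance minimum, 2 with only the groups compared, 21 with 40 libraries of both times and 71 without title run 8, and 2 to 29 when 1 library was left out, highest without EGF replicate 6. At 6 h the count of 0 (edgeR, 4518 genes at an unadjusted p under 0.05) was 207 with DESeq2, 1570 without both replicates 6, and 0 to 969 when 1 library was left out, with 860 without AII replicate 6 and 969 without AII + EGF replicate 6. The correlation of 0.67 across genes was 0.27 with the study's filter, 0.12 without a filter, 0.63 with 40 libraries, 0.19 with all 48 libraries and 0.44 with all 24 libraries of 24 h, and 0.59 to 0.71 when 1 library was left out. The causes of these shifts were not tested.

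No paired analysis was possible because the labels carry no replicate numbers, and replicates were numbered in order of deposition. With the title run as a block instead, 395 genes were called in AII + EGF against AII (172 of the 176 among them) and 125 in EGF against control. With that block and without title run 8 the counts were 489, 138 and, for the interaction, 1. Among the 39 called named genes, single libraries most often ended the calls of CHAC1, DUSP5, HERPUD1, ENO2, H2AC18, EPAS1 and EGR1. With the block over all title runs their adjusted p (edgeR) ran from 4.89e-08 (ENO2) to 0.00206 (CHAC1). HBEGF and SPRY2, not called, had adjusted p of 0.00556 and 0.00249 there, at log2 differences of 0.52 and 0.39, below 1.5-fold. The alternatives without title run 8, and the lists of splicing regulators, heat-shock and zinc finger genes, were chosen after seeing the data.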

Other observations

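The gene groups below were chosen after their values were seen and are described without a test. Splicing regulators had mostly lower values in AII + EGF, as 29 of 37 had a log2 change at or below 0, the median was -0.18 against -0.02 over all genes, and SFPQ was called. HNRNPM, an hnRNP protein, and SRSF1, a serine-rich splicing factor, differed by -0.82 (adjusted p = 0.0107) and -0.85 (adjusted p = 0.0123), and without AII + EGF replicate 6 both were called, with 5 of 37 lower in all. HNRNPC and HNRNPL had values above 0 (0.12 and 0.18).

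The inducible HSP70 genes HSPA1A and HSPA1B rose by 1.31 ± 0.28 and 1.13 ± 0.24 (SE; adjusted p = 0.00666 and 0.00571). The copies share nearly all of their sequence, so their counts are not independent. Both calls were lost in 10 of 11 fits without a single library, with adjusted p up to 0.0228 and 0.0189. HSPA1A had 362 to 438 CPM under AII and 939 to 1439 CPM in AII + EGF replicates 1 to 5, whereas replicate 6 had 281 CPM, below the AII range. Of the 14 tested heat-shock genes no other was called.

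Long non-coding RNAs had 3 called genes higher and 17 lower among 3010 tested, with a median log2 change of -0.19, whereas 13965 protein-coding genes had 110 higher and 41 lower and a median of 0.01. Of 203 tested zinc finger genes on chromosome 19 named ZNF with a number, 162 had a log2 change at or below 0, the median was -0.25, and 0 were called higher and 4 lower by edgeR (1 higher and 84 lower at an unadjusted p under 0.05, which 21.6% of all genes passed in either direction). Of 235 such genes on other chromosomes, 159 had a log2 change at or below 0, the median was -0.11, 0 were called higher and 5 lower by edgeR, and 11 were higher and 49 lower at an unadjusted p under 0.05.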
